A study of Mus musculus with 8 samples.

Results

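The 10 genes described here encode the proteins that release, take up, and exchange calcium in striated muscle: *Ryr1*, *Ryr2*, *Casq2*, *Trdn*, *Hrc*, *Jph2*, *Atp2a2*, *Pln*, *Slc8a1*, and *Camk2d*. They were chosen by symbol, and all 10 were found among the 16994 genes of the count table. RNA came from the hearts of male WT mice and of male mice with whole-body knockout of *Tigar* (TKO), a gene for a phosphatase that lowers glycolytic flux. There was 1 library for the left ventricle (LV) and 1 for each of the infarct, border, and remote zones after myocardial infarction (MI) in each genotype, 8 libraries in all. MI was induced at 16 weeks of age by permanent ligation of the left anterior descending coronary artery, and heart function was followed to 4 weeks in the study. The TKO mice lack the gene in all cell types and not only in cardiomyocytes, and the floxed line of the study goes back to C57BL/6N mice. Each infarct zone library was made from RNA pooled from 3 mice, whereas pooling in the other regions, the age of the LV mice, and whether the LV hearts were sham operated are not given in the sources used here. With 1 library per genotype and region, a difference between 2 libraries cannot be checked against replicates. Each interval on a ratio or share of counts is a 95% exact binomial interval that covers counting error only. The interval beside a median over the genes is the median of their lower bounds and that of their upper bounds. It is not a 95% interval and leaves out the spread between genes.

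In a heart muscle cell, calcium that enters through the L-type channel opens the ryanodine receptor of the sarcoplasmic reticulum (SR), and the calcium released from the SR starts contraction. The SERCA pump then returns calcium to the SR under the brake of phospholamban, and the sodium-calcium exchanger carries the rest out of the cell. RyR2 is the release channel of the heart and RyR1 that of skeletal muscle, where it is opened by direct contact with a voltage sensor rather than by calcium.

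Since *Ryr1* and *Ryr2* are paralogs, their sequences were compared first, to show how far reads of one could be counted for the other. *Ryr1* (ENSMUSG00000030592) lies on the minus strand at chr7:29003344-29125179 of GRCm38, the same build as mm10, and *Ryr2* (ENSMUSG00000021313) on the minus strand at chr13:11553102-12106945. In their longest coding transcripts in GENCODE, the coding sequences of 15105 and 14898 bases were 70.8% identical over 14468 bases aligned without a gap. The 90 bases of the coding sequence in which they are most alike show what a read of one gene would share with the other, with the 7 mismatches in capitals.
Ryr1: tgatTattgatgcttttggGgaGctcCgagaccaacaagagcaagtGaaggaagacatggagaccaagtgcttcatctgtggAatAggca
Ryr2: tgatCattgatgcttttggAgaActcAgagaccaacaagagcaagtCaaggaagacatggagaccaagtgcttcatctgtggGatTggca
The window covers bases 14798 to 14887 of the *Ryr1* coding sequence, in exons 103 and 104 of 106 (chr7:29004783-29004844 and chr7:29004498-29004525), and bases 14591 to 14680 of the *Ryr2* coding sequence, in exons 102 and 103 of 105 (chr13:11558047-11558108 and chr13:11556671-11556698). It holds the longest stretch of identical bases between them, 35 in length. Kallisto assigns reads by words of 31 bases by default, and 5 of the 15328 such words of the longest *Ryr1* transcript occurred in a *Ryr2* transcript on either strand.

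Of the other genes, *Pln* shared the most sequence. Words of 31 bases that also occur in a transcript of another gene made up 62.1% of the longest *Pln* transcript, most of them (1316) in *Gm47644*, a gene annotated on the opposite strand at the same place. For *Atp2a2* the share was 7.43%, with 260 words in the pseudogene *Gm30970* and 14 in each of *Atp2a1* and *Atp2a3*, the pumps of fast skeletal muscle and of non-muscle cells. For *Ryr1* the share was 4.10%, mostly in *Gm26604*, which is antisense to it. The remaining 7 genes had shares from 0% to 1.68%. *Gm47644*, *Gm26604*, and *Gm30970* had no row in the count table, and whether the libraries kept the strand is not given in the sources used here, so the counts of *Pln* are the least certain of the 10.

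Total counts per library lay between 27429240 and 33799249. *Tigar* had 1066 to 2215 counts in the WT libraries and 51 to 87 in the TKO libraries, in the direction the labels give. Values are CPM, the count scaled by the library total times edgeR's TMM factor, which was 1.54 for WT infarct, 1.26 for TKO infarct, and 0.866 to 0.956 for the rest. With library totals alone, the median over the 12999 genes that averaged 1 CPM or more moved by -0.29 (log2) in the TKO/WT ratio of the infarct zone, and by 0.83 and 0.54 in the infarct/LV ratio of WT and TKO. The 10 sarcomere genes used as markers of cardiomyocytes, such as *Actc1* (cardiac α-actin), were abundant in every library. Their summed level was 46990 CPM in WT LV, 49780 in TKO LV, 11520 in WT infarct, 23280 in TKO infarct, and 36550 to 43170 in the border and remote zones. WT LV, the baseline of the WT ratios to LV, stood apart from TKO LV in adipocyte genes, with 370 against 6 counts of *Adipoq* and 1144 against 17 of *Cfd*, genes named here after their values were seen, and the part of this in the LV ratios was not tested. In bulk tissue, fewer cardiomyocytes and less RNA per cardiomyocyte cannot be told apart.

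Compared per kilobase of the longest coding transcript, the SR calcium pump and its regulator had the highest levels of the 10 genes. In WT LV, *Atp2a2* had 2796 CPM per kb and *Pln* 2313, followed by *Hrc* at 419.5, *Casq2* at 282, *Jph2* at 126, and *Ryr2* at 49.5. *Camk2d* and *Trdn* were close to each other at 17.4 and 16.7 CPM per kb, *Slc8a1* was at 1.96, and *Ryr1* was last at 0.00238. In WT infarct, *Pln* (588 CPM per kb) stood above *Atp2a2* (464), as it also did in WT border, WT remote, TKO LV, and TKO infarct. *Casq2* stood above *Hrc* in all 6 zone libraries, at 114 against 55.6 CPM per kb in WT infarct. The level of *Slc8a1* was divided by a transcript of 18464 bases, so its place depends on the transcript in use.

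**Figure D1:**
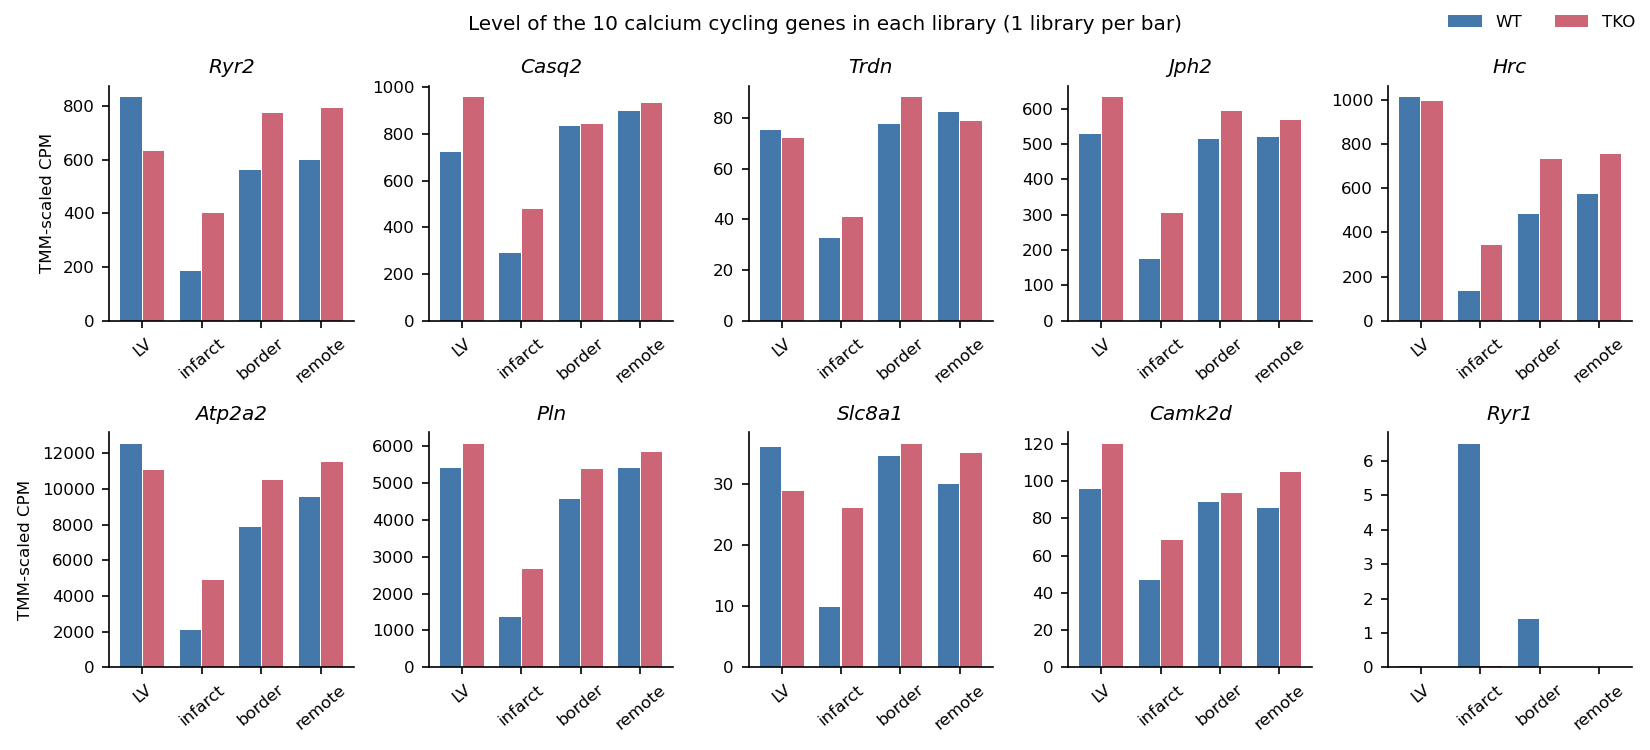
Level of the 10 calcium cycling genes in TMM-scaled CPM (y axes, linear, each from 0) in the LV, infarct, border, and remote zone libraries (x axes), with WT in blue and TKO in red and 1 library per bar. In every panel except that of *Ryr1* the WT infarct bar is the lowest and the TKO infarct bar the next lowest, whereas *Ryr1* stands at 6.50 CPM in WT infarct and 1.40 in WT border and near or at 0 elsewhere.

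*Ryr2*, the release channel of the cardiac SR, was lowest in WT infarct. Its level was 832 CPM in WT LV, 186 in WT infarct, 562 in WT border, and 600.2 in WT remote. In TKO it was 631 CPM in LV, 401 in infarct, 773 in border, and 791 in remote. The 2 infarct libraries lay below the other 6, and TKO was above WT in every zone after MI but not in LV. The infarct/LV ratio of *Ryr2* was 0.224 in WT (0.218 to 0.229) and 0.635 in TKO (0.620 to 0.649). The TKO/WT ratio was 2.15 in infarct (2.09 to 2.21), 1.38 in border (1.35 to 1.40), 1.32 in remote (1.29 to 1.34), and 0.759 in LV (0.743 to 0.774).

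*Casq2*, *Trdn*, *Hrc*, and *Jph2* serve the release site. *Casq2* (calsequestrin 2, chr3:102086415-102146514, plus strand) binds calcium inside the SR. Its levels in LV, infarct, border, and remote were 722, 292, 836, and 901 CPM in WT and 958, 479, 845, and 934 CPM in TKO. Outside the infarct zone *Casq2* was lowest in WT LV, so that the LV library was not its highest in WT. From LV to infarct, the ratio was 0.404 in WT (0.395 to 0.413) and 0.499 in TKO (0.490 to 0.509). The TKO/WT ratio in the infarct zone was 1.64 (1.60 to 1.68). In the border zone the TKO/WT ratio of *Casq2* was 1.01 (0.993 to 1.03), and no difference could be detected with these counts.

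*Trdn* (triadin, chr10:33080554-33476709, plus strand) anchors calsequestrin to the ryanodine receptor. Its levels, in the order LV, infarct, border, and remote, were 75.2, 32.7, 77.7, and 82.3 CPM in WT and 72.1, 41.0, 88.1, and 78.8 CPM in TKO. Of the 9 genes other than *Ryr1*, *Trdn* had the TKO/WT ratio in the infarct zone that was nearest to 1, at 1.25 (1.16 to 1.35). In LV (0.959, 0.900 to 1.02) and the remote zone (0.958, 0.905 to 1.01) its interval included 1.

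*Hrc* (histidine-rich calcium-binding protein, chr7:45335290-45338974, plus strand) binds calcium in the SR lumen and interacts with triadin and SERCA. Its levels in LV, infarct, border, and remote were 1011, 134, 483, and 572 CPM in WT and 996, 345, 732, and 754 CPM in TKO. Both LV libraries were above all 6 zone libraries. The infarct/LV ratio was 0.133 in WT (0.129 to 0.136) and 0.346 in TKO (0.339 to 0.353), the lowest of the 10 genes in both genotypes. *Hrc* also had the lowest border/LV and remote/LV ratios of the 9 genes other than *Ryr1*, which in WT were 0.478 (0.468 to 0.488) and 0.565 (0.555 to 0.576), and in TKO 0.735 (0.722 to 0.749) and 0.757 (0.743 to 0.771). Its TKO/WT ratio was 2.57 in infarct (2.49 to 2.65), 1.52 in border (1.48 to 1.55), and 1.32 in remote (1.29 to 1.34), whereas in LV it was 0.985 (0.968 to 1.002).

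*Jph2* (junctophilin 2, chr2:163336242-163397993, minus strand) holds the SR close to the transverse tubule. It had 529, 174, 514, and 521 CPM in WT and 632, 304, 592, and 569 CPM in TKO, in the same order of regions. Relative to LV, infarct was at 0.329 in WT (0.320 to 0.339) and 0.481 in TKO (0.470 to 0.493). TKO was above WT in all 4 regions, with ratios of 1.20 in LV (1.17 to 1.22), 1.75 in infarct (1.70 to 1.80), 1.15 in border (1.13 to 1.18), and 1.09 in remote (1.07 to 1.12).

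*Atp2a2* (SERCA2, chr5:122453513-122502225, minus strand), the pump that refills the SR, had the most counts of the 10 genes. Its level was 12545 CPM in WT LV, 2081 in WT infarct, 7848 in WT border, and 9566 in WT remote. In TKO the values were 11081, 4905, 10526, and 11540.2 CPM in the same order. The TKO infarct library lay above the WT infarct library and below the other 6. Against LV, the ratio in infarct was 0.166 in WT (0.165 to 0.167) and 0.443 in TKO (0.440 to 0.445). The TKO/WT ratio in the infarct zone was 2.36 (2.34 to 2.38). In the other regions the TKO/WT ratio of *Atp2a2* was 0.883 in LV (0.879 to 0.888), 1.34 in border (1.33 to 1.35), and 1.21 in remote (1.20 to 1.21). The study plotted *Atp2a2* from these same libraries, so its direction in the infarct zone is not independent evidence. It also reported that SERCA2 protein was preserved in the TKO infarct zone by Western blot, which these counts do not measure.

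*Pln* (phospholamban, chr10:53337667-53345987, plus strand), the small inhibitor of the pump, had 5399.6 CPM in WT LV, 1373 in WT infarct, 4563 in WT border, and 5409.8 in WT remote. In TKO the levels were 6068, 2661, 5388, and 5833 CPM. TKO was above WT in each region, and the ratio was 1.94 in the infarct zone (1.92 to 1.96) against 1.08 to 1.18 in the other 3. The ratio of *Pln* to *Atp2a2* counts within a library, which no library scaling can move, was 0.430 in WT LV (0.428 to 0.433), 0.660 in WT infarct (0.653 to 0.667), 0.581 in WT border, and 0.566 in WT remote. In TKO it was 0.548 in LV (0.544 to 0.551), 0.542 in infarct (0.538 to 0.547), 0.512 in border, and 0.506 in remote. In WT, *Pln* per *Atp2a2* was thus higher in each zone after MI than in LV, whereas in TKO it was not higher in any of them. The contrast between genotypes rests in part on WT LV, the library with the lowest ratio of the 8.

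*Slc8a1* (sodium-calcium exchanger 1, chr17:81373105-81738377, minus strand), the main route by which calcium leaves the cell, was the least abundant of the genes other than *Ryr1*. It had 989, 419, 1066, and 913 counts in WT and 749, 929, 1085, and 1057 counts in TKO, or 36.1, 9.90, 34.6, and 30.0 CPM against 28.9, 26.0, 36.6, and 35.1 CPM. Infarct relative to LV was 0.274 in WT (0.244 to 0.308) and 0.899 in TKO (0.815 to 0.991). The TKO/WT ratio in the infarct zone, 2.62 (2.34 to 2.95), was the highest of the 10 genes, with an interval that overlapped that of *Hrc*. In LV the ratio was 0.801 (0.728 to 0.882).

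*Camk2d* (the δ subunit of CaMKII, chr3:126596302-126846326, plus strand), the kinase that phosphorylates RyR2 and phospholamban, had 95.9, 47.0, 88.6, and 85.7 CPM in WT and 120.1, 68.3, 93.7, and 105 CPM in TKO. It spanned the narrowest range of the 10 genes, 2.56-fold between its highest and lowest library. Its TKO/WT ratio was 1.46 in infarct (1.37 to 1.54), 1.25 in LV (1.19 to 1.32), 1.22 in remote (1.16 to 1.29), and 1.06 in border (1.003 to 1.12).

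The first comparison across the genes asked how the infarct zone differed from LV. In WT, 9 of the 10 genes were at least 2-fold lower in the infarct zone after a prior count of 2, where 14.8% of all 12999 genes were, and *Ryr1* was at least 2-fold higher, as were 18.8% of all genes. The median ratio over the 10 genes was 0.302 (0.286 to 0.323) beside 1.01 over all genes. In TKO, 5 of the 9 genes with a ratio were at least 2-fold lower (*Atp2a2*, *Pln*, *Casq2*, *Jph2*, and *Hrc*), where 7.62% of all genes were, and the median was 0.499 (0.490 to 0.509). *Casq2* in TKO (0.499, 0.490 to 0.509) and *Camk2d* in WT (0.490, 0.462 to 0.520) had intervals that reached past the 2-fold threshold. With edgeR's quasi-likelihood test on region and genotype, which takes the 2 genotypes as if they were replicates and so bears on regions and not on mice, 8 of the 10 genes fell in the infarct zone (28.6% of all genes fell and 28.2% rose). *Ryr1* also passed the threshold there, but it entered the test only through the WT libraries in which it was high, and with 1 against 0 counts in TKO the test shows no rise beyond WT. The log2 change ran from -0.92 for *Camk2d* (adjusted p = 0.0021) to -2.20 for *Hrc* (adjusted p = 0.0023), with Benjamini-Hochberg adjustment over all genes. *Slc8a1* did not pass in edgeR (log2 change -0.95, adjusted p = 0.067), while DESeq2's Wald test called it lower (adjusted p = 0.018). With library totals alone, *Camk2d* was no longer called in edgeR (log2 change -0.24, adjusted p = 0.13), and 5 genes in WT (*Ryr2*, *Atp2a2*, *Pln*, *Slc8a1*, and *Hrc*) and 0 in TKO were at least 2-fold lower, beside 3.84% and 1.6% of all genes. Against LV, no gene of the 10 was called in edgeR with TMM in the border zone (adjusted p from 0.069 for *Ryr1* to 0.97, and 0.034 for *Ryr1* with library totals) or in the remote zone (adjusted p from 0.52 to 0.99). Such calls were rare among all 12999 genes: 0.669% rose and 0.0462% fell in border tissue, and 0 were called in remote tissue. The lack of calls therefore does not set the 10 genes apart from the rest.

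The question that the knockout poses is whether the genes differed between TKO and WT in each region. In the infarct zone, the 9 genes other than *Ryr1* had ratios from 1.25 to 2.62, all with intervals above 1, and *Ryr1* was the single gene with a lower count in TKO. The median over the 10 genes was 1.84 (1.81 to 1.88), beside 1.005 over all genes. *Ryr2*, *Atp2a2*, *Slc8a1*, and *Hrc* were at least 2-fold higher, as were 2.4% of all genes, and *Ryr1* was at least 2-fold lower, as were 1.43% of all genes. With library totals alone, only *Slc8a1* (2.14) and *Hrc* (2.10) of the 4 stayed at least 2-fold higher (0.892% of all genes), *Ryr2* was at 1.76 and *Atp2a2* at 1.92, and *Trdn* was at 1.02. In the border zone the median was 1.14 (1.10 to 1.18), with no gene at least 2-fold higher (1.23% of all genes) and *Ryr1* alone lower (3.26%). In the remote zone the median over 9 genes was 1.17 (1.07 to 1.21), and in LV it was 0.985 (0.968 to 1.02), with no gene at least 2-fold different in either (for all genes, 1.17% higher and 2.39% lower in remote, 1.98% and 3.62% in LV).

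**Figure D2:**
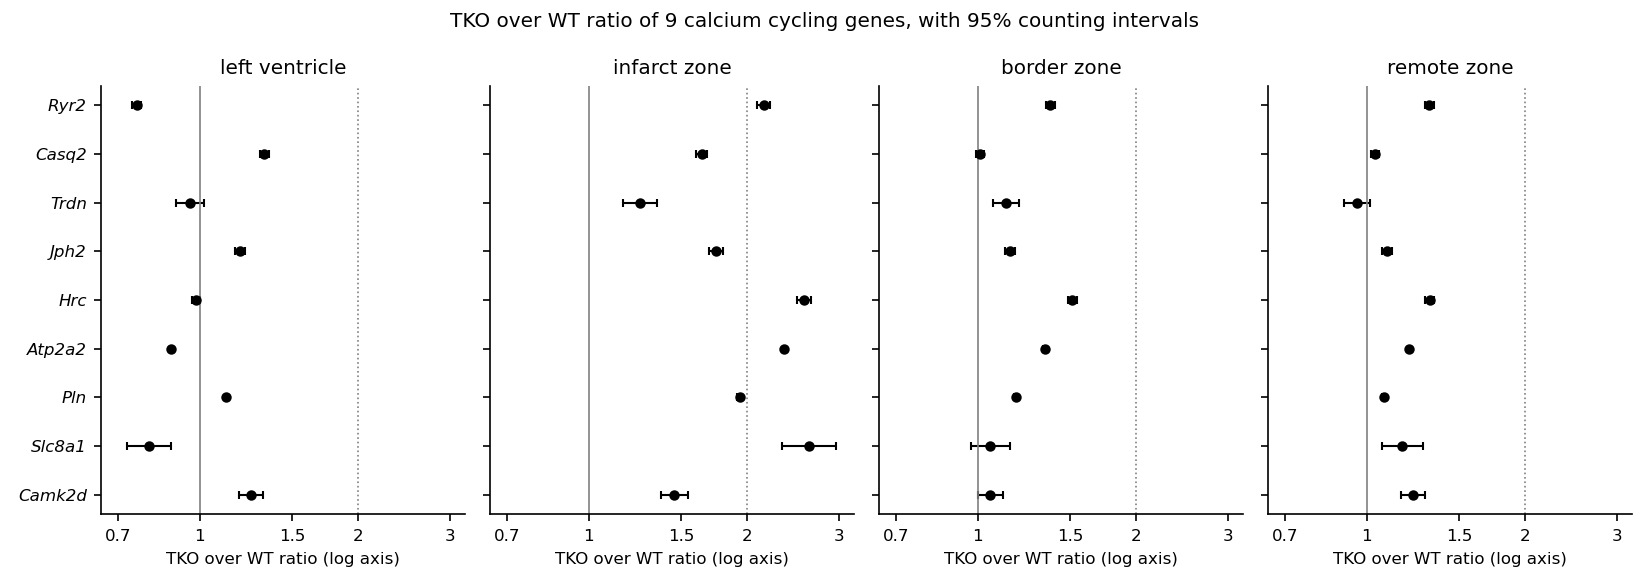
TKO/WT ratio (x axes, log scale) of the 9 genes other than *Ryr1* in each region, as points with 95% counting intervals, from 1 library per genotype. The solid line marks a ratio of 1 and the dotted line a ratio of 2, and in the infarct zone all 9 points lie above 1, from 1.25 (*Trdn*) to 2.62 (*Slc8a1*).

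Tested across the 4 regions as blocks, with regions standing in for replicates although the 3 zones after MI may come from the same hearts, which the sources used here do not state, edgeR's quasi-likelihood test called 18 of 12999 genes between genotypes (0.0769% higher and 0.0615% lower in TKO). Of the 10 genes only *Ryr1* passed the threshold, lower in TKO (log2 change -7.51, adjusted p = 0.042). It entered the test only through the 2 WT libraries in which it was high and held 0 or 1 count in the other 6, so the value is a description of those libraries, and the fitted change depends on the prior count. The call was kept without the LV libraries (adjusted p = 0.039) and was lost in edgeR without the infarct zone libraries (adjusted p = 0.47), without the border zone libraries (0.32), without the remote zone libraries (0.058), and with DESeq2's Wald test (0.39). The other 9 genes had log2 changes from 0.09 (*Trdn*) to 0.58 (*Hrc*), with adjusted p from 0.23 to 0.62 in edgeR, and were not called. Whether the genotype difference in the infarct zone departed from that in the other 3 regions was tested in the same way, and rests on 1 TKO and 1 WT infarct zone library. In edgeR none of the 10 genes was called (adjusted p from 0.41 to 0.97), and 1018 of all genes, of which 1 passed adjustment, were at an unadjusted p under 0.05. In DESeq2's Wald test, *Pln* (log2 departure 0.78, adjusted p = 0.0026), *Atp2a2* (1.07, 0.0049), *Hrc* (1.04, 0.0067), and *Jph2* (0.61, 0.018) were called. They were among 288 genes called, all of them higher. For 10837 of the 12999 genes, *Ryr1* and *Slc8a1* among them, DESeq2 gave no adjusted p and so could make no call. The 288 calls thus came from the remaining genes only, and their share of those is larger than their share of all 12999.

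The sarcomere genes moved with these ratios. Over the 10 sarcomere markers, the geometric mean of the TKO/WT ratio was 2.01 in the infarct zone (single genes from 1.64 to 3.41), 1.17 in border, 1.13 in remote, and 1.06 in LV. The infarct/LV ratio of the same genes was 0.248 in WT and 0.469 in TKO. The study plotted *Myh6*, *Tnni3*, *Tnnc1*, *Tnnt2*, and *Actn2* from these same libraries. Their direction in the infarct zone is thus not independent evidence. Divided by the sarcomere mean, the TKO/WT ratio of the 9 calcium cycling genes in the infarct zone had a median of 0.963, with 4 genes above 1 and 5 below. *Slc8a1* was at 1.30, *Hrc* at 1.28, *Atp2a2* at 1.17, and *Ryr2* at 1.07. *Pln* stood at 0.963, *Jph2* at 0.868, *Casq2* at 0.816, *Camk2d* at 0.723, and *Trdn* at 0.623. The calcium cycling genes thus lay on both sides of the sarcomere mean. Before division, none of the 9 lay above the range of single sarcomere genes in the infarct zone. The top of that range was *Myh6* alone (3.41), and the next highest gene was *Tnni3* (2.13), both named after their values were seen. *Slc8a1* (2.62), *Hrc* (2.57), *Atp2a2* (2.36), and *Ryr2* (2.15) lay above *Tnni3*, though the interval of *Ryr2* overlapped that of *Tnni3*. *Trdn* (1.25) and *Camk2d* (1.46) lay below the whole range of single sarcomere genes. The part of cardiomyocyte content in the ratios of the calcium cycling genes was not tested beyond these values.

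Within the infarct zone, the genes differed in how far they followed the sarcomere genes. In WT, the infarct/LV ratio divided by the sarcomere mean was 0.535 for *Hrc*, 0.669 for *Atp2a2*, and 0.903 for *Ryr2*. It was 1.03 for *Pln*, 1.11 for *Slc8a1*, 1.33 for *Jph2*, 1.63 for *Casq2*, 1.75 for *Trdn*, and 1.98 for *Camk2d*. *Hrc* and the pump were thus below the sarcomere mean in WT infarct, though within the range of single sarcomere genes (ratios to LV from 0.120 to 0.346). The low end of that range was *Myh6* alone. *Hrc* (0.133) and *Atp2a2* (0.166) lay below the next lowest sarcomere gene, *Tnni3* (0.202). *Camk2d*, *Trdn*, and *Casq2* were above the range of single sarcomere genes. In TKO the spread was narrower for most genes, from 0.738 for *Hrc* to 1.35 for *Ryr2*, with *Slc8a1* apart at 1.92. *Camk2d* is also expressed outside cardiomyocytes.

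**Figure D3:**
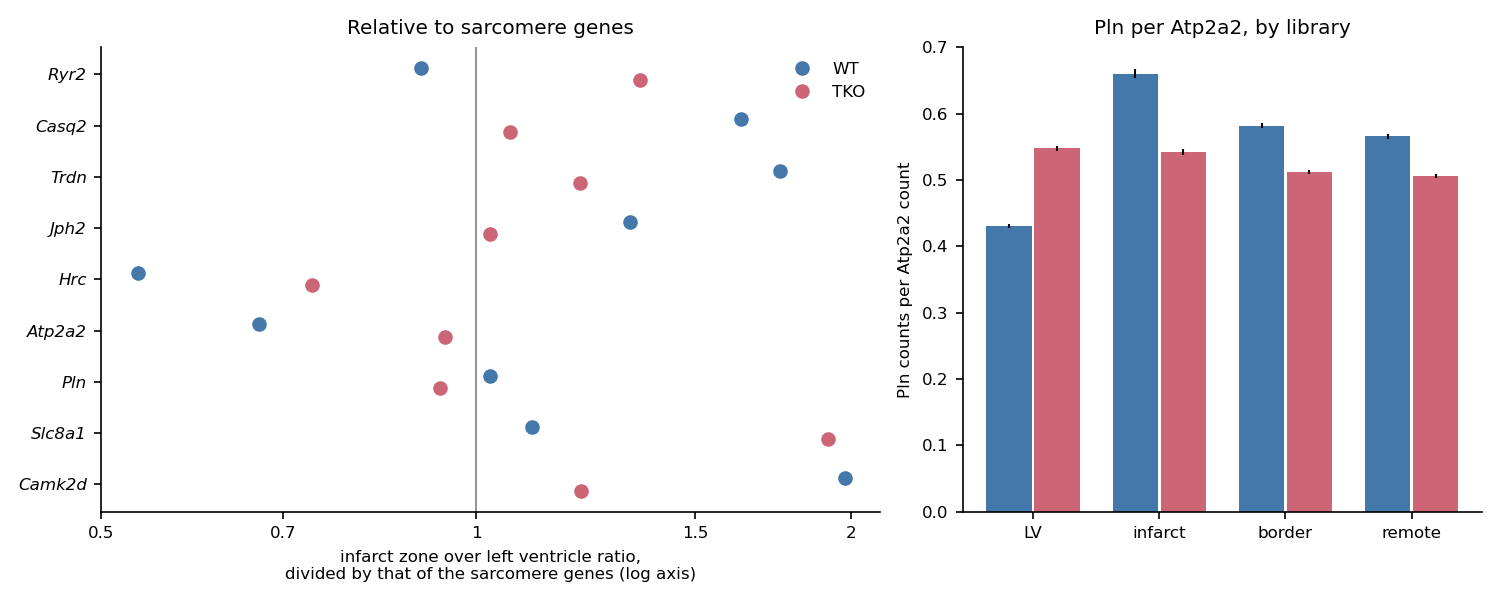
Left, the infarct/LV ratio of 9 calcium cycling genes divided by that of the 10 sarcomere genes (x axis, log scale, WT blue and TKO red, 1 library per value), which runs from 0.535 (*Hrc*) to 1.98 (*Camk2d*) in WT. Right, *Pln* counts per *Atp2a2* count in each library (y axis from 0, bars with 95% counting intervals), lowest at 0.430 in WT LV and highest at 0.660 in WT infarct.

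Counts of genes that serve the release site were also set against *Ryr2* within a library. These are ratios of RNA counts in bulk tissue, not divided by transcript length. The protein makeup of the release site was not tested. *Casq2* counts per *Ryr2* count were 0.867 in WT LV, 1.57 in WT infarct, 1.49 in WT border, and 1.502 in WT remote. In TKO they were 1.52, 1.20, 1.09, and 1.18 in the same order. WT LV was the lowest of the 8, and in the zones after MI the WT values were above the TKO values. *Hrc* per *Ryr2* was 1.22 in WT LV and 1.58 in TKO LV, and 0.720 to 0.954 in the 6 zone libraries, lowest in WT infarct. *Trdn* counts per *Ryr2* count were highest in WT infarct at 0.176 (0.166 to 0.186) and lay between 0.0904 and 0.138 in the other 7 libraries.

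*Ryr1* had a pattern of its own. It had 275 counts in WT infarct, 43 in WT border, 1 in WT LV, and 0 in WT remote. In TKO it had 1 count in the infarct zone and 0 in LV, border, and remote. The 2 WT libraries nearest to the injury thus held nearly all *Ryr1* counts, and *Ryr1* passed the filter on low values only through them, with a mean of 1.43 CPM. In the infarct zone the WT count was 232 times the TKO count after scaling (interval, 41.4 to 9212), and in the border zone it was at least 13.8-fold higher, taking 3 counts per library as the floor. In LV and the remote zone both genotypes were at or below the floor. *Ryr1* made up 3.38% of *Ryr1* plus *Ryr2* counts in WT infarct (2.99% to 3.79%) and 0.248% in WT border (0.180% to 0.334%), whereas in the 4 libraries with 0 counts the limit that a count of 0 allows was 0.0126% to 0.0184%, and the 2 libraries with 1 count had 0.00439% (WT LV) and 0.00698% (TKO infarct). Per kilobase, *Ryr1* in WT infarct was at 0.423 CPM and *Ryr2* at 11.1 CPM.

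Markers of skeletal muscle moved with *Ryr1*. The 5 genes most like *Ryr1* over the 8 libraries, by Pearson correlation of log2 CPM, were *Actn3* (0.991), *Tnnt3* (0.984), *Myh4* (0.981), *Tnnc2* (0.979), and *Myh1* (0.978), all of which encode proteins of skeletal muscle fibers and all of which were in the skeletal muscle list. The correlation is a description over 8 libraries and rests on the 2 libraries with counts. *Myh4*, a fast myosin heavy chain, had 1486 counts in WT infarct, 193 in WT border, and 1 to 6 in the other 6 libraries. *Tnnt3*, fast troponin T, had 1414 and 205 counts in these 2 libraries and 11 to 50 elsewhere. *Ryr1* counts per *Myh4* count were 0.185 in WT infarct (0.162 to 0.211) and 0.223 in WT border (0.156 to 0.311), with intervals that overlap. Per count of *Cacna1s*, which was not high in these libraries, *Ryr1* was at 1.34 in WT infarct (1.12 to 1.61) and 0.139 in WT border (0.0984 to 0.191).

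**Figure D4:**
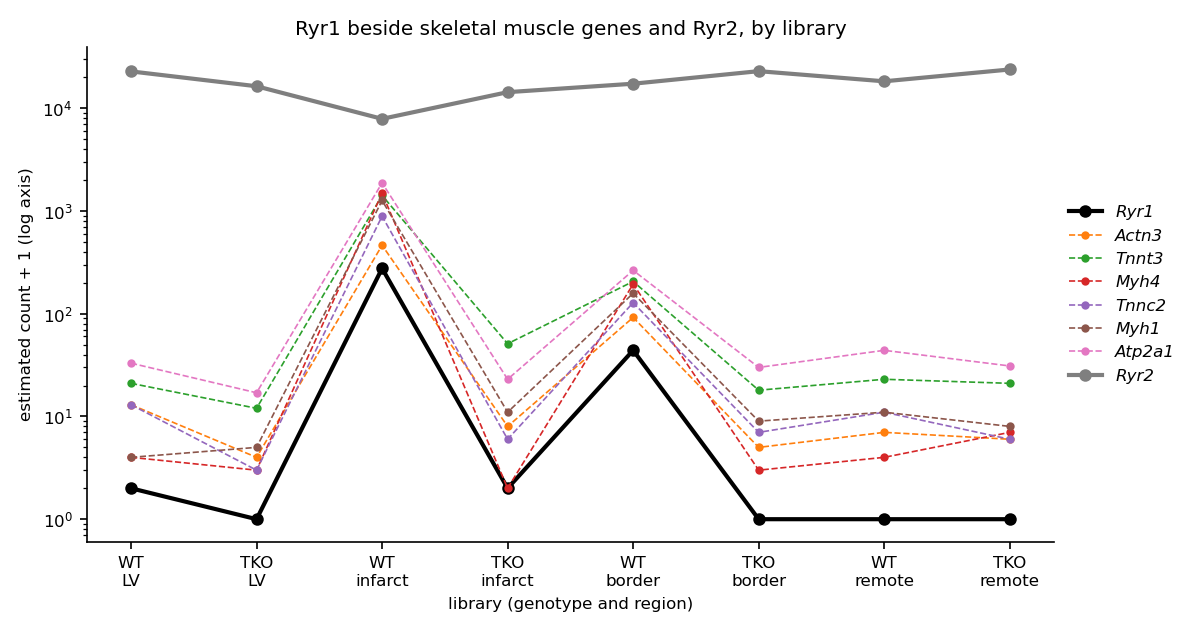
Estimated count plus 1 (y axis, log scale) of *Ryr1*, *Ryr2*, *Atp2a1*, and the 5 genes most like *Ryr1* in the 8 libraries (x axis, 1 point per gene and library, lines join libraries only to guide the eye). *Ryr1* (275 and 43 counts) and the skeletal muscle genes stand above their levels in the other 6 libraries in WT infarct and WT border, whereas *Ryr2* is lowest in WT infarct.

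Over the whole list of 14 skeletal muscle markers, the summed level was 265 CPM in WT infarct, 85.4 in WT border, and 28.3 to 58.8 CPM in the other 6 libraries. Several of these markers, such as *Myh4* and *Tnnc2*, passed the filter only through WT infarct and WT border, as *Ryr1* did. Their lower level in TKO infarct is thus a description and no separate result. Of the 13 that passed the filter, 11 were at least 2-fold lower in TKO infarct than in WT infarct (1.43% of all genes). The exceptions were *Mybpc2*, a myosin-binding protein, which has the most counts of the list (449 to 706 in every library), and *Cacna1s*, which was highest in the LV libraries. *Mylpf* was at 0 in TKO LV. *Cacna1s* and *Mylpf* were named after their values were seen. *Ryr1* is expressed in skeletal muscle fibers as well as at a low level in other cells, and the part of skeletal muscle RNA in the *Ryr1* result was not tested. Without the infarct and border zone libraries 1 *Ryr1* count was left, too few for any test of genotype.

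Among other cell types, smooth muscle, fibroblast, and leukocyte markers were higher in both infarct zones than in the other 6 libraries. The 6 smooth muscle genes summed to 746 CPM in WT infarct, 506 in TKO infarct, and 275 to 337 elsewhere. The most counted of them, *Smtn*, had infarct/LV ratios of 0.828 in WT and 0.933 in TKO and did not share this pattern, which *Acta2* (3.64 and 2.64), named after its values were seen, did. The 7 fibroblast genes, led by *Col3a1*, summed to 7835 CPM in WT infarct, 6540 in TKO infarct, and 825 to 2851 elsewhere, and the 7 leukocyte genes, led by *Csf1r*, to 334, 249, and 69.1 to 134. Atrial genes, led by *Nppa*, which ventricles also make under stress, ran from 189 CPM in WT LV to 3046 in WT infarct, with 2093 in TKO infarct, 2564 in WT remote, 701 in TKO remote, 1726 in WT border, and 494 in TKO border. *Nppa* carries these sums, and the other 4 atrial genes were highest in WT remote. Endothelial genes, led by *Cdh5*, lay between 540.3 and 672 CPM, and adipocyte genes between 265 and 726, a sum carried by *Fabp4*. The part of these cells in the ratios of the calcium cycling genes was not tested.

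The wider calcium handling machinery gave a mixed picture. Of 61 further genes in 6 lists, some of which (*Atp2a1*, *Casq1*, *Sln*) are also in the skeletal or atrial marker lists, 60 were in the table and 51 passed the filter on low values. Their median TKO/WT ratio in the infarct zone was 1.03, with 30 genes above 1 and 21 below. After the prior count, 1 gene was at least 2-fold higher and 4 lower, beside 2.4% and 1.43% of all genes. The 4 lower genes were *Fkbp1b*, *Casq1*, *Atp2a1*, and *Sln*. *Fkbp1b* and *Atp2a1* passed the filter only through libraries in which they were high, WT infarct among them. Their place in this count is thus a description. In edgeR, 12 rose and 24 fell in the infarct zone against LV, where 28.2% of all genes rose and 28.6% fell. None was called between genotypes, where 0.0769% of all genes were higher and 0.0615% lower.

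Among release channels and their partners, 4 of 11 genes rose in the infarct zone against LV and 1 fell (28.2% and 28.6% of all genes). *Ryr3*, the ryanodine receptor of brain and smooth muscle, had 59, 29, 34, and 47 counts in WT and 31, 50, 39, and 66 in TKO, with a TKO/WT ratio in the infarct zone of 2.04 (1.27 to 3.34). *Fkbp1b* (calstabin 2), which binds RyR2, had 134 counts in WT infarct and 54 in TKO infarct, a ratio of 0.477 (0.341 to 0.659), against 11 counts in each LV library. Unlike *Ryr2*, *Fkbp1b* was higher in the infarct zone than in LV (edgeR, adjusted p = 0.0054), and it is among the 4 genes that rose. It passed the filter on low values only through the infarct zone, where it was highest. This call is thus a description of those libraries.

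Of the 9 luminal and junctional proteins that passed the filter, 8 fell in the infarct zone against LV (28.6% of all genes fell), and the median TKO/WT ratio there was 1.56. *Cmya5* (myospryn), which anchors junctions near the Z-disc, had the highest ratio at 2.04 (1.98 to 2.10). *Casq1*, the calsequestrin of skeletal muscle, had 347 counts in WT infarct and 79 in TKO infarct, a ratio of 0.269 (0.208 to 0.345).

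Of the uptake pumps and small regulators, *Atp2a1*, the SERCA of fast skeletal muscle, had 1874 counts in WT infarct, 263 in WT border, and 16 to 43 elsewhere, with a TKO/WT ratio in the infarct zone of 0.0139 (0.00868 to 0.0211). *Ryr1* counts per *Atp2a1* count were 0.147 in WT infarct and 0.163 in WT border. *Sln* (sarcolipin), a pump inhibitor of atrium and skeletal muscle, had 300 counts in WT infarct and 10 in TKO infarct, but it was highest in the remote zone, with 2461 counts in WT and 735 in TKO. *Atp2a3* had a ratio of 1.02 (0.940 to 1.11).

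The exchangers and plasma membrane pumps that passed the filter were *Atp2b1* and *Atp2b4*, calcium pumps of the cell surface found in many cell types, with TKO/WT ratios in the infarct zone of 0.862 (0.815 to 0.912) and 0.810 (0.753 to 0.870). Both rose in the infarct zone against LV in edgeR (adjusted p = 0.031 and 0.00084). Of the 14 kinases, phosphatases, anchors, and phosphodiesterases, 11 fell in the infarct zone against LV and none rose (28.6% and 28.2% of all genes). Their TKO/WT ratios ran from 0.991 (*Camk2g*, the γ subunit of CaMKII) to 1.67 (*Ppp1r3a*, which targets protein phosphatase to glycogen and SR), with a median of 1.19. Among mitochondrial uptake and store-operated entry genes, 5 of 11 rose and 3 fell (28.2% and 28.6% of all genes), and the ratios ran from 0.567 for *Mcub*, the dominant-negative partner of the calcium uniporter, to 1.23 for *Micu2*, its gatekeeper.

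The 5 genes most like *Ryr2* over the 8 libraries were *Vwa8*, *Sptb*, *Cmya5*, *Ank3*, and *Eif4g1*, with Pearson correlations of log2 CPM from 0.993 to 0.996. As points share the library, this is a description of 8 libraries only. Of the other members, *Atp2a2* was nearest to *Ryr2* (0.987) and *Casq2* farthest (0.909) apart from *Ryr1* (-0.780). *Vwa8* had 6871, 2001, 4498, and 4684 counts in WT and 4571, 3935, 6194, and 6415 in TKO in the order LV, infarct, border, and remote, and like *Ryr2* it was lower in TKO than in WT in LV alone.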

How the data were processed

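The table deposited by the authors holds estimated counts per gene, rounded to whole numbers, for 8 libraries made by GENEWIZ from heart RNA. The authors trimmed reads with Trim Galore (0.6.5), quantified them with kallisto (0.46) on the mm10 transcriptome, and summed transcripts to genes with tximport. Each library was assigned to its genotype and region by its label. Counts were scaled with TMM from 12999 genes that averaged 1 CPM or more, and ratios were given exact (Clopper-Pearson) 95% intervals. Calls of 2-fold used a prior count of 2, and the floor was 3 counts. Tests were edgeR (4.0.16) quasi-likelihood fits of region plus genotype, with 3 residual degrees of freedom, and of their departure in the infarct zone, with Benjamini-Hochberg adjustment at 0.05, in R (4.3.3). The tests were also run on simulated counts with the same dispersion for every gene. These data need not follow that setting, so the run does not show how the tests perform on them. DESeq2 (1.42.0), other scalings, no filter, and leaving out regions were the alternatives. Named genes were those with the highest and lowest TKO/WT ratio in the infarct zone of each wider calcium handling list, and every gene of these lists at least 2-fold different there, among genes that passed the filter. The most counted marker of each cell type and the 5 genes most correlated with *Ryr1* and *Ryr2* were also named. The members and lists were chosen with earlier results of these data known. Sequences are from GRCm38 with GENCODE M21.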

Additional observations from a re-analysis of the deposited data

Results flagged for a closer look

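For 3 of the 10 genes, TKO was below WT in LV and above WT in the infarct zone, with counting intervals that exclude a ratio of 1 on both sides. The TKO/WT ratio of *Ryr2* was 0.759 in LV and 2.15 in the infarct zone, that of *Atp2a2* was 0.883 and 2.36, and that of *Slc8a1* was 0.801 and 2.62. Over all 12999 genes tested, 8.2% switched in this way, as did 3 of the 10 sarcomere genes (*Myh6*, *Ttn*, and *Actn2*, named after their values were seen), and genes with more counts pass such intervals more readily. This difference between LV and the infarct zone was not tested, since each value rests on 1 library per genotype. In the fit that sets the infarct zone against the other 3 regions together, edgeR's quasi-likelihood test called none of the 3 genes, and DESeq2's Wald test called *Atp2a2* (adjusted p = 0.0049), did not call *Ryr2* (adjusted p = 0.053), and gave no adjusted p for *Slc8a1*.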

How the results depend on the processing

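No paired analysis was possible because each genotype and region holds 1 library, and region or genotype already served as the block. With library totals alone, the median ratio over the 10 genes was 1.502 for TKO/WT in the infarct zone (1.84 with TMM), 1.07 in the border zone (1.14), 0.536 for infarct/LV in WT (0.302), and 0.725 in TKO (0.499). TMM over all genes gave 1.89 for TKO/WT in the infarct zone and 0.484 for infarct/LV in TKO, and leaving out *Ryr1* gave 1.94 for the former and 0.274 for infarct/LV in WT. Genotype calls numbered 18 in edgeR, 56 with library totals (12 higher and 44 lower, against 10 and 8), and 342 in DESeq2. They ran from 3 to 83 when each region was left out, with 3 without the remote zone, 5 without the border zone, 6 without the infarct zone, and 83 without LV, and were 4 without the infarct and border zones, an alternative chosen after seeing the data. Border zone calls went from 93 to 200 with library totals and 576 in DESeq2, remote zone calls from 0 to 18, 162, and, with no filter, 3, and departure calls from 1 to 288 in DESeq2. Infarct zone calls numbered 8953 with library totals (7869 higher and 1084 lower), against 7385 (3670 and 3715). Library totals also reversed 5 ratios near 1, giving 0.989 for *Camk2d* TKO/WT in the border zone, 1.07 and 1.02 for *Jph2* and *Camk2d* border/LV in WT, 1.31 for *Slc8a1* infarct/LV in TKO, and 1.003 for *Casq2* remote/LV in TKO. The counts of genes at least 2-fold different under library totals, and the share of genes that switched direction, were added after seeing the data. The cause of these changes was not tested. Low depth limits *Ryr1* alone among the 10 genes.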

Other observations

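Some genes of the calcium entry and release machinery had counts that stand out, and they were chosen after their values were seen. *Itpr1*, an inositol trisphosphate receptor, had 0 counts in TKO LV and 354 counts in 4 of the other libraries (WT LV, TKO infarct, and both remote zones). *Cacna1c*, the pore of the cardiac L-type channel, had 7 counts in WT LV, 0 in TKO LV, and 13 to 44 in the zone libraries.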
